A study of Mus musculus with 9 samples.

Results

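The genes described here are the DNA repair and recombination genes of the mouse whose GENCODE M21 symbol is that of a Fanconi anemia (Fanc), Rad, Brca, Xrcc, Ercc, mismatch repair (Msh, Mlh, Pms) or Parp gene, or of Bard1, Blm, Wrn, Palb2, Atm, Atr, Chek1, Chek2, Xpa or Xpc. The annotation holds 68 such genes, and 64 of the 14477 genes with values were among them. Fancd2os, Msh4, Rad21l and Rad51ap2 were not analysed here. The name pattern also took Rad21, a cohesin subunit, and Rad54l2, an androgen receptor-interacting helicase, which are kept in the counts and described on their own. The name pattern uses no measured value, but it was proposed with earlier results of these data known.

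RNA was sequenced from green fluorescent cells sorted from the dentate gyrus of the hippocampus (DG, 5 libraries) or the subventricular zone beside the lateral ventricle (SVZ, 4 libraries), 2 sites of adult neurogenesis. All mice were adults of the strain B6.Cg-Tg(Nes-EGFP)1Yamm, in which Nestin regulatory sequence drives the fluorescent protein. They were untreated and kept in standard housing, and no age in weeks is given. The transgene selects every cell in which that sequence is active, and it is not stated if a library is 1 animal or a pool. P-values therefore weigh a difference only against the spread between these libraries, which need not be that between animals.

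Cells mend DNA by several routes. Homologous recombination copies an intact sister chromatid and depends on Brca1, Palb2 and Brca2, and the Fanconi pathway unhooks crosslinked strands ahead of it. End joining seals breaks without a template, excision pathways replace damaged bases or stretches of a strand, and mismatch repair corrects copying errors. Recombination and mismatch repair act mainly in cells that copy their DNA, and adult neurogenic zones hold both dividing precursors and resting stem cells.

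Most DNA repair genes had less RNA in DG than in SVZ cells. Of the 64 members, 41 were lower in DG (64.1%) and 5 were higher (7.81%), while 18 did not pass the threshold (limma on all genes, Benjamini-Hochberg adjusted p under 0.05). Over all genes with values, 33.7% were lower and 32.9% higher in DG, so that 66.6% passed either way. The median log2 fold change, DG minus SVZ, was -0.53 for the members and -0.07 for all genes. In 39 members every DG library lay below every SVZ library, as in 28.3% of all genes, and in 4 members every DG library lay above, as in 29.7% of all genes. The other 21 members overlapped between the regions.

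The differences were moderate in size. At least 2-fold lower levels in DG were found in 19 members (29.7%), against 12.4% of all genes, and at least 2-fold higher levels in 1 member (1.56%), against 22.7% of all genes. That member, Parp3, is in the table only through its DG levels. The SD between libraries of a region had a median of 0.20 on the log2 scale over the members and 0.28 over all genes. Without Rad21 and Rad54l2, 39 of 62 members were lower and 5 higher, with a median of -0.50.

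**Figure D1:**
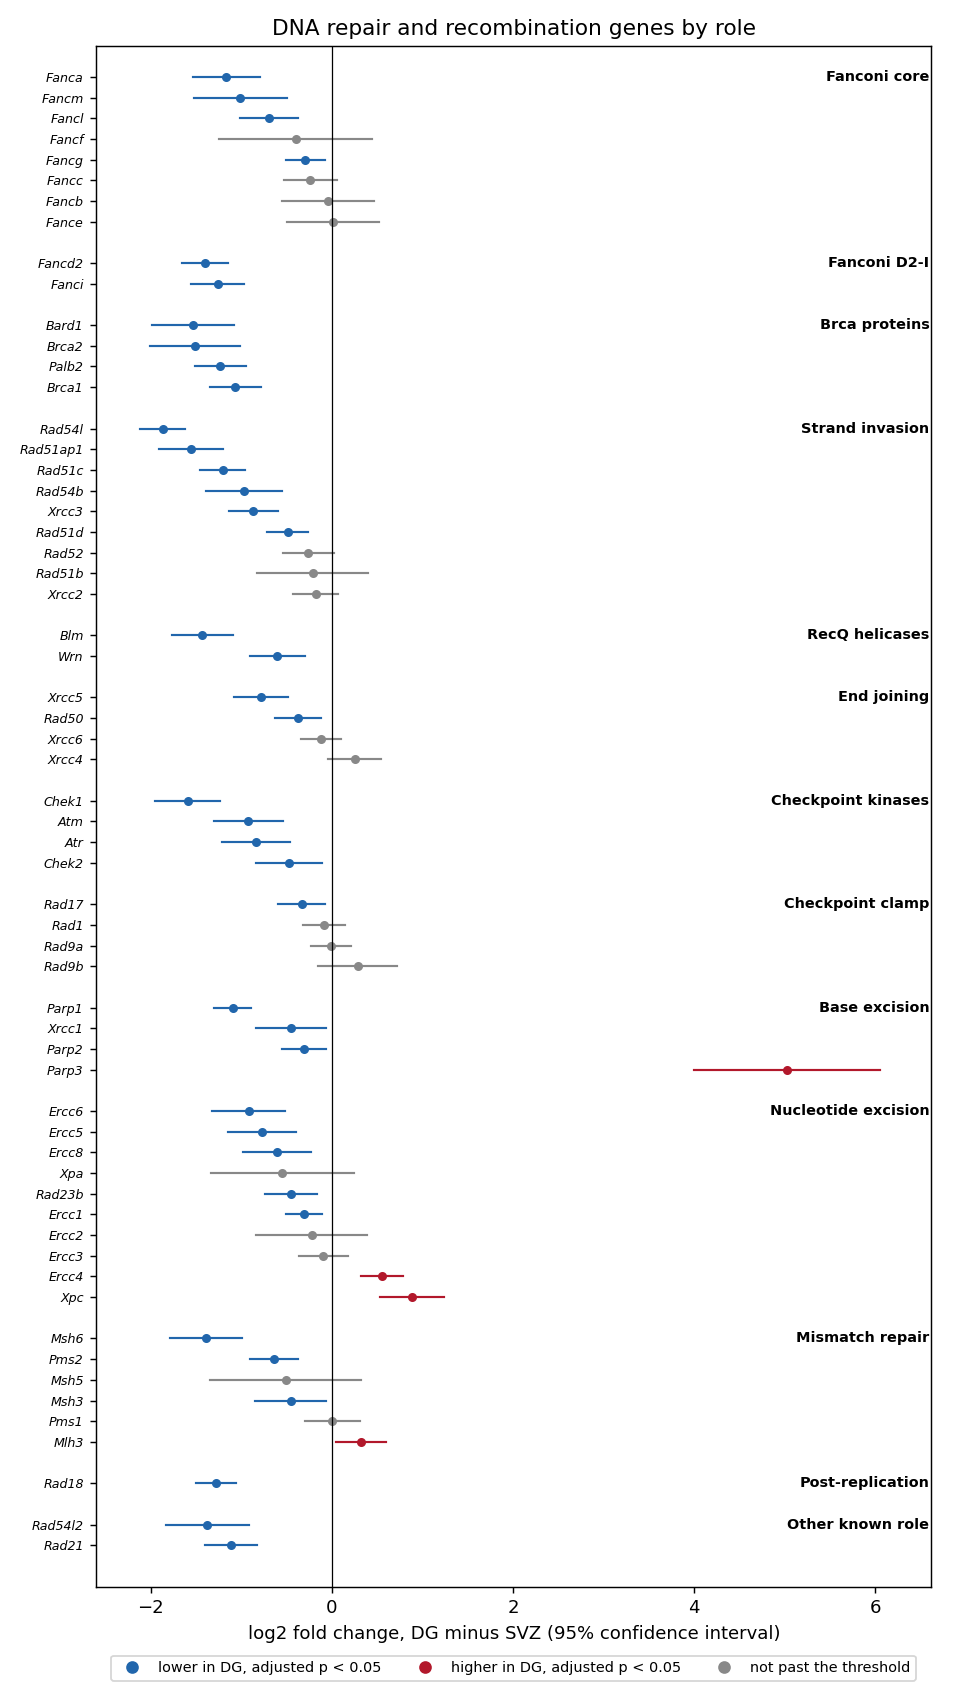
Log2 fold change, DG minus SVZ, of 60 of the 64 members, grouped by role from top to bottom. Points are limma estimates and bars their 95% confidence intervals; of these 60, blue marks 39 lower in DG, red 4 higher in DG and grey 17 that did not pass the threshold.

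**Figure D2:**
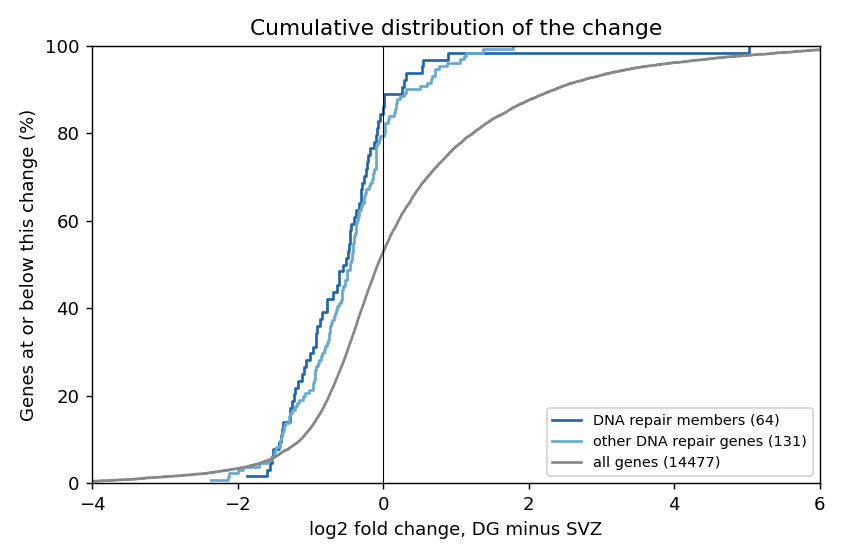
Cumulative share of genes (%) at or below each log2 fold change, DG minus SVZ, for the 64 members, 131 other DNA repair genes and all 14477 genes. The curves of the repair genes lie to the left of that of all genes over most of the range, with medians of -0.53, -0.45 and -0.07.

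All levels below are log2 CPM (a gene's reads scaled to the library's total and put on a log2 scale). A prior count of 1 read was added, which slightly understates differences of rare transcripts. Library totals were 33627909 to 41164044 reads in DG and 31126803 to 32528255 reads in SVZ. Of the members, 61 exceeded 1 CPM in all 9 libraries and 57 had at least 100 reads in each. The table holds genes above 1 CPM in at least 3 libraries, and Parp3 met this only in DG. On the second principal component of all genes, with 3.89% of the variance, DG 3 stood apart. Without it, 39 members were lower and 5 higher, with no share of all genes given beside them.

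Cell cycle genes moved with the repair genes. Of 20 S phase genes, 19 were lower in DG, with a summed level of 1766 to 2269 CPM in DG libraries and 5481 to 6680 CPM in SVZ libraries. All 20 genes of the G2 and M phases were lower, at 1087 to 1959 CPM in DG and 4524 to 5034 CPM in SVZ. Mki67, a gene of cycling cells, averaged 6.36 ± 0.27 in DG and 8.50 ± 0.31 in SVZ (log2 CPM, SD, n = 5 and 4). The members summed to 1842 to 2025 CPM in DG and 2858 to 3154 CPM in SVZ. The part of cycling cells in the differences was not tested. In bulk RNA, fewer cells that use a gene and less RNA per cell cannot be told apart.

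Markers of other cell types also separated the regions. All 10 endothelial markers were higher in DG, at 1150 to 2194 CPM in sum in DG against 9.51 to 64.7 CPM in SVZ. All 10 pericyte markers (5512 to 11368 CPM in DG, 73.4 to 178 CPM in SVZ) and all 8 fibroblast markers (716 to 1473 CPM in DG, 26.0 to 90.0 CPM in SVZ) were higher as well. Of 10 astroglial markers, 9 were higher in DG, with 17158 to 25930 CPM in DG and 1979 to 3662 CPM in SVZ. All 6 neuroblast markers were lower in DG (5341 to 7916 CPM in DG, 18877 to 22596 CPM in SVZ), and so were all 10 of the GABAergic lineage (106 to 989 CPM in DG, with 989 CPM in DG 2 and at most 144 CPM in the other DG libraries, and 4936 to 5599 CPM in SVZ). Of 6 precursor markers 4 were lower in DG, among them Nes at 6.28 in DG and 7.23 log2 CPM in SVZ. Of the granule cell and oligodendrocyte markers, 7 of 8 each were higher in DG, while 5 of 6 ependymal markers were lower and 7 of 10 microglial markers did not pass. No marker of these lists was at 0 in any library, and the part of other cell types in the differences was not tested.

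**Figure D3:**
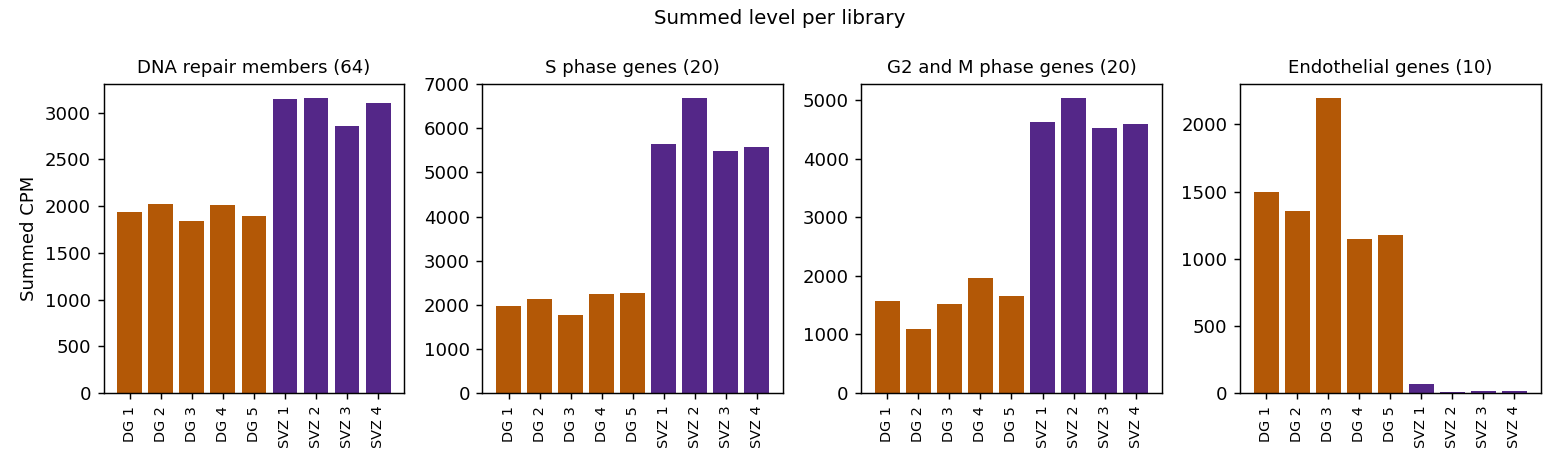
Summed level (CPM, bars from 0) of the 64 members, 20 S phase genes, 20 genes of the G2 and M phases and 10 endothelial genes in each library, DG left of SVZ. Members sum to 1842 to 2025 CPM in DG and 2858 to 3154 CPM in SVZ, both cell cycle lists are lower in every DG library, and the endothelial list is higher.

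The promoter search was part of the plan of the analysis, and many S phase genes carry E2F sites. RefSeq windows (GRCm38.p6, 250 bases before to 50 after a start) matched 49 of the 64 members. The members without a window included Rad54b, Rad54l2, Rad51d, Xrcc2, Xpc, Ercc3, Wrn, Rad21, Rad50, Fancd2 and Rad9a. The E2F-like core TTCCCGC or TTGGCGC, on either strand, stood in 23 of 55 windows of members (41.8%), against 11.6% of the 13924 windows of genes with values and 6.81% of all 32841 windows. CCAAT, on either strand, stood in 61.8% of the members' windows, against 37.7% and 37.4%. TTTGAA, the letters of a cell cycle homology region, stood in 5.45%, against 12.1% and 17.9%. One strand of the second E2F form ends in CCAA, so it can share these bases with CCAAT. A match describes letters and shows no binding.

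The share of members lower in DG was alike with and without the core. With the core, 15 of 23 were lower in DG (65.2%) and 0 were higher, with a median log2 fold change of -0.64. Without it, 17 of 26 were lower (65.4%) and 3 were higher, with a median of -0.50. Over all genes with a window, 42.8% of 1516 with the core and 31.9% of 9318 without it were lower in DG. The 8 members that were lower with the smallest adjusted p and held a core are shown with 10 bases, or as many as the window leaves, on each side. The gene's own strand is read from 5′ to 3′ and capitals mark the core. Its first base lies between -208 and 44 relative to the start, whose first base is 1.
Rad51c (chr11:87404943-87404969, minus strand): ccccgcgaggGCGGGAAaagcaagggg
Rad51ap1 (chr6:126939559-126939585, minus strand): ctggttttcgGCGGGAAttgaaaccgc
Chek1 (chr9:36726609-36726625, minus strand): gcaggttttgGCGGGAA
Fanci (chr7:79392346-79392372, plus strand): gtggagtagaGCGGGAAttttggaagg
Brca1 (chr11:101551918-101551944, minus strand): ctagcgctagGCGCCAAgcggccggtt
Msh6 (chr17:87975056-87975082, plus strand): cctcccgactTTCCCGCcagcggcggc
Bard1 (chr1:71103164-71103190, minus strand): gccgctcagtTTCCCGCtcaggaagtt
Brca2 (chr5:150522443-150522469, plus strand): ttaggccacaGCGGGAAacagacacac
Brca1 holds the second form of the core and the other 7 sites hold the first, on one strand or the other.

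The Fanconi core complex, which ubiquitinates Fancd2 and Fanci at a blocked fork, was lower in DG in 4 of 8 genes, with a median of -0.34. Over all genes 33.7% were lower and 32.9% higher, and each role group here and below is small. Fanca, a scaffold of the complex, had 3.06, 3.30, 2.84, 3.36 and 2.91 log2 CPM in DG 1 to DG 5, against 4.15, 4.44, 3.98 and 4.48 in SVZ 1 to SVZ 4. The 2 regions did not overlap (log2 fold change -1.17, SE 0.17, adjusted p = 0.000101). Fancm, the helicase that brings the complex to DNA, was lower by 1.01 log2 (SE 0.23, adjusted p = 0.00271). Fancl, the ubiquitin ligase itself, was lower by 0.69 log2 (SE 0.15, adjusted p = 0.00143), and Fancg by 0.29 log2 (SE 0.10, adjusted p = 0.0212), a call lost under 4 of 16 alternatives. The other subunits did not pass the threshold: Fancf differed by -0.40 log2 (95% interval -1.25 to 0.45, adjusted p = 0.374), Fancc by -0.24 log2 (95% interval -0.53 to 0.06, adjusted p = 0.135), Fancb by -0.04 log2 (95% interval -0.55 to 0.46, adjusted p = 0.88) and Fance by 0.01 log2 (95% interval -0.49 to 0.52, adjusted p = 0.964). The interval of Fancf is wide enough to hold a difference of the size of Fanca. Some exonic bases also belong to a gene on the opposite strand, which the library type cannot separate. In Fancc they are 18.6%, shared with 2010111I01Rik, which was higher in DG by 0.90 log2 (adjusted p = 0.000263). In Fancl they are 13.7%, shared with Vrk2, higher by 0.71 log2 (adjusted p = 0.00964). Gas2 (0.15 log2) overlaps Fancf and Zfp276 (-0.24 log2) overlaps Fanca, and neither passed. The part of shared bases in these estimates was not tested.

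The genes of both proteins that the complex marks were lower. Fancd2 had 4.23, 4.36, 4.19, 4.40 and 4.39 log2 CPM in DG 1 to DG 5, against 5.77, 5.72, 5.45 and 5.91 in SVZ 1 to SVZ 4. No DG library reached the lowest SVZ library, and Fancd2 was 2.64-fold lower in DG (log2 fold change -1.40, SE 0.12, adjusted p = 1.68e-06). Fanci, its partner, averaged 4.36 ± 0.22 log2 CPM in DG and 5.62 ± 0.11 in SVZ (SD) and was lower by 1.26 log2 (SE 0.13, adjusted p = 9.33e-06). Of the exonic bases of Fanci, 16.0% also belong to Polg on the opposite strand, which the library type cannot separate. Polg differed by 0.15 log2 between the regions (adjusted p = 0.534).

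All 4 genes of the Brca group were lower in DG, with a median of -1.37. Brca1, the ubiquitin ligase that prepares broken ends for recombination, had 5.18, 5.00, 5.06, 5.11 and 5.29 log2 CPM in DG 1 to DG 5, against 6.45, 6.08, 5.89 and 6.36 in SVZ 1 to SVZ 4. All DG libraries were below all SVZ libraries (log2 fold change -1.07, SE 0.13, adjusted p = 2.64e-05). Bard1, its obligate partner, was among the least abundant members, at 1.29 ± 0.30 log2 CPM in DG and 2.82 ± 0.16 in SVZ (SD), and was lower by 1.53 log2 (SE 0.21, adjusted p = 6.13e-05). Brca2, which acts on single strands in recombination, had 2.89, 2.73, 2.84, 3.07 and 2.41 log2 CPM in DG 1 to DG 5, against 4.76, 4.11, 3.71 and 4.63 in SVZ 1 to SVZ 4. DG libraries lay below SVZ libraries throughout (log2 fold change -1.51, SE 0.23, adjusted p = 0.000139), with SVZ 3 nearest to them. Palb2, which joins Brca1 to Brca2, had 3.22, 3.20, 3.19, 3.03 and 3.0 log2 CPM in DG 1 to DG 5, against 4.41, 4.26, 4.25 and 4.52 in SVZ 1 to SVZ 4. The DG values were close together and all lower (log2 fold change -1.23, SE 0.13, adjusted p = 8.33e-06).

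Of 9 genes that act at strand invasion, where a broken end pairs with the sister strand, 6 were lower in DG, with a median of -0.87. Rad54l, a motor protein that aids this step, had 4.90, 5.12, 5.24, 5.23 and 5.23 log2 CPM in DG 1 to DG 5, against 7.0, 7.14, 6.79 and 7.12 in SVZ 1 to SVZ 4. It had the smallest adjusted p of all members and was 3.65-fold lower (log2 fold change -1.87, SE 0.11, adjusted p = 1.42e-07), with no overlap. Of its exonic bases, 15.4% are shared with Lrrc41 on the opposite strand, which differed by 0.09 log2. Because Rad54l stood at this end of the list, the 250 bases before its start are shown for its minus strand at chr4:116123691-116123940 of GRCm38.p6, with CCAAT in capitals. These bases hold no E2F-like core.
Rad54l: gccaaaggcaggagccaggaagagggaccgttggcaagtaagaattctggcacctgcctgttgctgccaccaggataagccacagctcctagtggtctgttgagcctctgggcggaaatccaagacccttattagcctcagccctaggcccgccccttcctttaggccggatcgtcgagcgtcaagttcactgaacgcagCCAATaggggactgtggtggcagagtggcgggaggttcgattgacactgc

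The other genes of this step differed in size. Rad51ap1, which stimulates strand invasion, was lower by 1.56 log2 (SE 0.16, adjusted p = 7.53e-06). Rad51c and Xrcc3, which form a complex, were lower by 1.21 log2 (SE 0.11, adjusted p = 3.65e-06) and 0.87 log2 (SE 0.12, adjusted p = 8.66e-05). Rad51d, of a related complex, was lower by 0.49 log2 (SE 0.10, adjusted p = 0.0014). Rad54b, a relative of Rad54l, was lower by 0.97 log2 (SE 0.19, adjusted p = 0.000966); 35.9% of its exonic bases are shared with Fsbp on the same strand, which was lower by 1.43 log2. Rad52 (-0.26 log2, 95% interval -0.54 to 0.02, adjusted p = 0.0922), Rad51b (-0.21 log2, 95% interval -0.82 to 0.40, adjusted p = 0.519) and Xrcc2 (-0.18 log2, 95% interval -0.42 to 0.07, adjusted p = 0.185) did not pass the threshold. All 9 estimates were below 0.

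**Figure D4:**
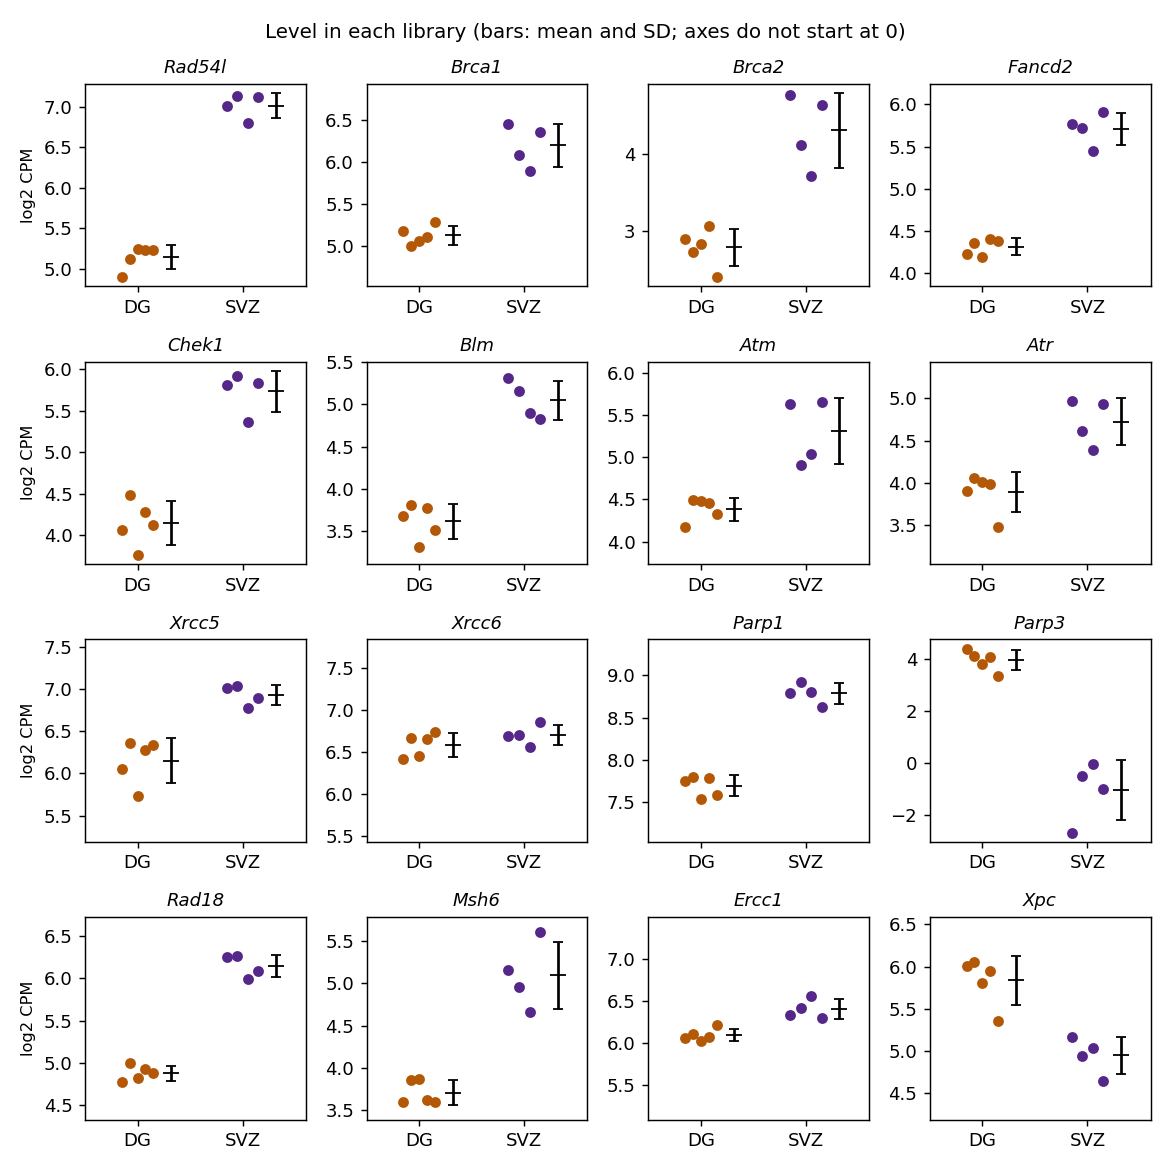
Level (log2 CPM) of 16 members, a point per library, DG left of SVZ, with bars for the mean and SD of each region and axes that do not start at 0. Of these 16, Xrcc6 overlaps between the regions, Xpc and Parp3 are higher in every DG library, and the other 13 are lower in every DG library.

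Both RecQ helicases, which unwind recombination intermediates, were lower in DG. Blm, which dissolves joined chromatids, had 3.68, 3.81, 3.31, 3.77 and 3.51 log2 CPM in DG 1 to DG 5, against 5.31, 5.16, 4.89 and 4.83 in SVZ 1 to SVZ 4. All DG libraries were lower (log2 fold change -1.43, SE 0.15, adjusted p = 1.02e-05). Wrn, the Werner syndrome helicase, averaged 4.72 ± 0.08 log2 CPM in DG and 5.32 ± 0.29 in SVZ (SD) and was lower by 0.60 log2 (SE 0.14, adjusted p = 0.00244).

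Checkpoint kinases were lower as well, with 4 of 4 past the threshold and a median of -0.88. Chek1, the kinase that restrains the cell cycle when forks stall, had 4.06, 4.48, 3.77, 4.28 and 4.12 log2 CPM in DG 1 to DG 5, against 5.82, 5.92, 5.36 and 5.83 in SVZ 1 to SVZ 4. The regions did not overlap, and Chek1 was 3.01-fold lower in DG (log2 fold change -1.59, SE 0.16, adjusted p = 8.26e-06). Atr, which activates Chek1 at exposed single strands, had 3.91, 4.06, 4.00, 3.99 and 3.47 log2 CPM in DG 1 to DG 5, against 4.97, 4.61, 4.39 and 4.93 in SVZ 1 to SVZ 4. DG 5 was the lowest library, and the DG libraries were below all SVZ libraries (log2 fold change -0.84, SE 0.17, adjusted p = 0.00109). Atm, the kinase that answers double-strand breaks, had 4.17, 4.49, 4.48, 4.46 and 4.32 log2 CPM in DG 1 to DG 5, against 5.63, 4.91, 5.04 and 5.65 in SVZ 1 to SVZ 4. SVZ libraries spread more than DG libraries but did not reach them (log2 fold change -0.92, SE 0.17, adjusted p = 0.000672). Chek2, the target of Atm, was lower by 0.47 log2 (SE 0.16, adjusted p = 0.0247), with overlapping libraries, and its call was lost under 5 of 16 alternatives.

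The checkpoint clamp, a ring loaded at damaged DNA, had the smallest median difference of the role groups, -0.05, and 1 of 4 genes passed. Over all genes, 66.6% passed. Rad17, its loader, had 4.87, 5.00, 4.73, 4.98 and 4.75 log2 CPM in DG 1 to DG 5, against 5.33, 5.37, 5.01 and 5.07 in SVZ 1 to SVZ 4. DG libraries were just below SVZ libraries (log2 fold change -0.33, SE 0.12, adjusted p = 0.0285), and this call was lost under 7 alternatives. The ring subunits did not pass: Rad1 differed by -0.09 log2 (95% interval -0.31 to 0.14, adjusted p = 0.476), Rad9a by -0.01 log2 (95% interval -0.22 to 0.21, adjusted p = 0.941) and Rad9b by 0.29 log2 (95% interval -0.15 to 0.72, adjusted p = 0.22). The intervals of Rad1 and Rad9a exclude a change as large as that of Chek1. Libraries without strand marks cannot separate genes that overlap on opposite strands. Of the exonic bases of Rad9a, 9.53% also belong to Ppp1ca, at 8.47 log2 CPM in DG and 8.40 in SVZ. Pptc7 shares 23.2% of those of Rad9b.

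In break sensing and end joining, 2 of 4 genes were lower, against 33.7% of all genes, with a median of -0.25. Xrcc5, which encodes the larger subunit of the Ku ring that caps broken ends, had 6.05, 6.36, 5.73, 6.27 and 6.34 log2 CPM in DG 1 to DG 5, against 7.01, 7.04, 6.78 and 6.89 in SVZ 1 to SVZ 4. All DG libraries were below all SVZ libraries (log2 fold change -0.78, SE 0.14, adjusted p = 0.000391). Xrcc6, the other Ku subunit, had 6.41, 6.67, 6.45, 6.65 and 6.73 log2 CPM in DG 1 to DG 5, against 6.69, 6.70, 6.56 and 6.86 in SVZ 1 to SVZ 4. These values overlapped, and the difference was -0.12 log2 (95% interval -0.34 to 0.10, adjusted p = 0.307). The difference between the 2 subunits was not tested. Rad50, of the complex that tethers ends, was lower by 0.37 log2 (SE 0.11, adjusted p = 0.0132), a call lost under 1 of 16 alternatives, and Xrcc4, the ligase cofactor, differed by 0.25 log2 (95% interval -0.04 to 0.54, adjusted p = 0.11).

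Base excision and single-strand break repair held 3 lower genes and 1 higher gene, which differed most from each other. Parp1, which senses strand breaks and makes poly(ADP-ribose), had 7.75, 7.80, 7.53, 7.79 and 7.58 log2 CPM in DG 1 to DG 5, against 8.79, 8.92, 8.81 and 8.63 in SVZ 1 to SVZ 4. DG was lower throughout (log2 fold change -1.10, SE 0.09, adjusted p = 1.64e-06). Parp2, a relative of it, was lower by 0.31 log2 (SE 0.11, adjusted p = 0.0285) and Xrcc1, the scaffold that Parp1 recruits, by 0.45 log2 (SE 0.17, adjusted p = 0.0398); these calls were lost under 5 and 10 of the 16 alternatives.

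Parp3, a mono-ADP-ribosyl transferase that responds to breaks, ran the other way. Its reads numbered 712, 631, 513, 616 and 422 in DG 1 to DG 5, against 4, 21, 30 and 15 in SVZ 1 to SVZ 4. In log2 CPM, Parp3 had 4.41, 4.14, 3.82, 4.08 and 3.36 in DG 1 to DG 5, against -2.70, -0.51, -0.03 and -1.03 in SVZ 1 to SVZ 4. All DG libraries were above all SVZ libraries, 32.6-fold on average (log2 fold change 5.03), and SVZ levels rested on few reads. Parp3 exceeded 1 CPM in 5 DG and 0 SVZ libraries and is in the table only through DG, so it had to differ in this direction, and its difference is a description. The part of other cell types in the Parp3 difference was not tested. As the member at the opposite end from Rad54l, Parp3 is shown with the 250 bases before its start, on the minus strand at chr9:106476950-106477199 of GRCm38.p6. The capitals mark ATTGG, the reverse complement of CCAAT, and these bases hold no E2F-like core.
Parp3: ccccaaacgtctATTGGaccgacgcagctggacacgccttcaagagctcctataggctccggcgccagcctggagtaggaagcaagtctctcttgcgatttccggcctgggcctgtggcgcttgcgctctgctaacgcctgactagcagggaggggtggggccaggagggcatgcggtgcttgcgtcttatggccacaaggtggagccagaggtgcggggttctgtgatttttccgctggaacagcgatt

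Nucleotide excision repair, which cuts out bulky lesions, was divided: of 10 genes described here, 5 were lower in DG and 2 were higher. Over all genes, 33.7% were lower and 32.9% higher. Xpc, which finds the lesion, had 6.01, 6.06, 5.81, 5.95 and 5.35 log2 CPM in DG 1 to DG 5, against 5.17, 4.93, 5.03 and 4.65 in SVZ 1 to SVZ 4. All DG libraries were above all SVZ libraries, 1.85-fold on average (log2 fold change 0.89, SE 0.16, adjusted p = 0.000517), and DG 5 was the lowest of the DG libraries. Rad23b, which binds Xpc, was lower by 0.45 log2 (SE 0.13, adjusted p = 0.0103).

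The incision and transcription-coupled genes also diverged. Ercc4, the catalytic subunit of the nuclease that cuts before the lesion, averaged 5.31 ± 0.11 log2 CPM in DG and 4.76 ± 0.11 in SVZ (SD) and was higher by 0.55 log2 (SE 0.11, adjusted p = 0.000731). Ercc1, its partner, had 6.06, 6.11, 6.03, 6.08 and 6.21 log2 CPM in DG 1 to DG 5, against 6.34, 6.42, 6.56 and 6.30 in SVZ 1 to SVZ 4. DG was lower, without overlap and by a small amount (log2 fold change -0.31, SE 0.09, adjusted p = 0.00968). Ercc6, which detects a stalled polymerase, had 4.10, 4.18, 4.05, 3.91 and 3.35 log2 CPM in DG 1 to DG 5, against 5.01, 4.54, 4.80 and 4.99 in SVZ 1 to SVZ 4. DG libraries were lower (log2 fold change -0.92, SE 0.18, adjusted p = 0.00103), and DG 5 was the lowest of them. Ercc8, which acts with Ercc6, was lower by 0.60 log2 (SE 0.17, adjusted p = 0.00899), and Ercc5, the nuclease on the other side of the lesion, by 0.77 log2 (SE 0.17, adjusted p = 0.00218). Xpa (-0.55 log2, 95% interval -1.34 to 0.24, adjusted p = 0.195) and the TFIIH helicases Ercc2 (-0.22 log2, 95% interval -0.83 to 0.39, adjusted p = 0.494) and Ercc3 (-0.09 log2, 95% interval -0.36 to 0.18, adjusted p = 0.516) did not pass. Of the exonic bases of Ercc2, 42.7% are shared with other genes.

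In mismatch repair, 3 of 6 genes described here were lower in DG and 1 was higher, with a median of -0.48. The shares over all genes were 33.7% lower and 32.9% higher. Msh6, which recognises single-base mismatches, had 3.59, 3.85, 3.87, 3.61 and 3.59 log2 CPM in DG 1 to DG 5, against 5.16, 4.96, 4.66 and 5.61 in SVZ 1 to SVZ 4. DG libraries were close together and all lower (log2 fold change -1.39, SE 0.18, adjusted p = 4.46e-05), and SVZ libraries spread more widely. Msh3, which recognises larger loops, was lower by 0.45 log2 (SE 0.18, adjusted p = 0.0409), a call that was lost under 8 alternatives.

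Among the MutL genes, which act after the mismatch is found, Pms2 was lower by 0.64 log2 (SE 0.12, adjusted p = 0.000745). Pms1 differed by 0.00 log2 (95% interval -0.30 to 0.31, adjusted p = 0.979). Mlh3, known for its role in meiotic crossovers, had 5.39, 5.22, 5.07, 5.40 and 4.98 log2 CPM in DG 1 to DG 5, against 5.10, 4.86, 4.80 and 4.82 in SVZ 1 to SVZ 4. The regions overlapped, and the higher level in DG (log2 fold change 0.32, SE 0.13, adjusted p = 0.0416) was lost under 8 alternatives. Msh5, a meiotic gene that was low in both regions, differed by -0.51 log2 (95% interval -1.34 to 0.32, adjusted p = 0.249).

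Rad18, the ubiquitin ligase that starts lesion bypass at stalled forks, had 4.77, 4.99, 4.82, 4.92 and 4.87 log2 CPM in DG 1 to DG 5, against 6.26, 6.27, 6.0 and 6.09 in SVZ 1 to SVZ 4. Libraries of each region were close together and did not meet, and Rad18 was 2.42-fold lower in DG (log2 fold change -1.28, SE 0.10, adjusted p = 1.02e-06). Rad21, the cohesin subunit, had 6.29, 6.46, 6.31, 6.42 and 6.64 log2 CPM in DG 1 to DG 5, against 7.66, 7.36, 7.27 and 7.87 in SVZ 1 to SVZ 4. DG was lower without overlap (log2 fold change -1.11, SE 0.13, adjusted p = 2.31e-05). Rad54l2 was lower by 1.37 log2 (SE 0.21, adjusted p = 0.000147).

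Levels of different members were compared per kilobase of exonic length (RPKM). Parp1 stood at 39.1 ± 3.28 RPKM in DG, at rank 2 of the 64, and at 83.6 ± 6.92 RPKM in SVZ, at rank 1 (SD). Xrcc5 followed it in both regions, with 28.2 RPKM in DG and 47.9 RPKM in SVZ. Rad21 had 20.4 RPKM in DG and 44.5 RPKM in SVZ. Rad54l held rank 26 in DG with 4.60 RPKM and rank 10 in SVZ with 16.8 RPKM. Parp3 held rank 27 in DG with 4.33 RPKM and rank 64, the last, in SVZ with 0.150 RPKM. Msh5 was the last in DG, with 0.244 RPKM, and stood at rank 63 in SVZ with 0.357 RPKM.

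**Figure D5:**
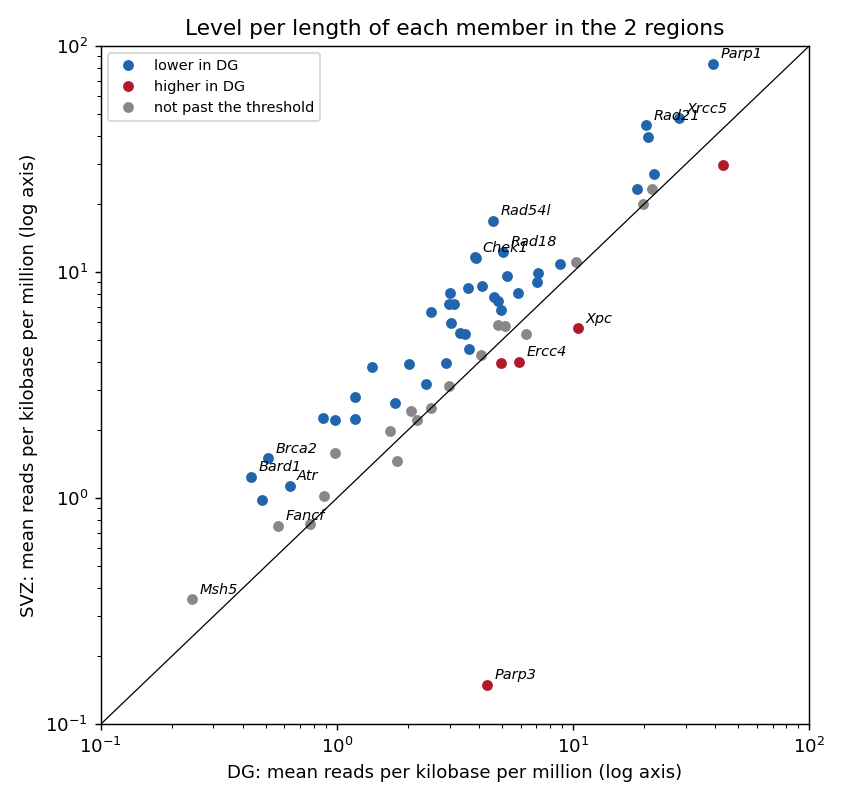
Mean RPKM of each member in DG and in SVZ, both axes on a log scale, with the line of equal levels. Most members lie on the SVZ side of the line; Parp3, at 4.33 RPKM in DG and 0.150 RPKM in SVZ, lies farthest on the DG side.

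The members' median level was 4.20 to 4.47 log2 CPM over the DG libraries and 4.82 to 5.05 over the SVZ libraries, so that the ranges did not meet. Library medians over all genes did not meet either, but they ran the other way. Every DG library lay above SVZ 4, the highest SVZ library, at 4.29 log2 CPM. Among DG libraries, DG 5 was lowest for 21 members and DG 3 for 19, and DG 2 was highest for 21. SVZ 3 was the lowest SVZ library for 31 of 64. In DG 5, longer genes read lower than in the other DG libraries (r = -0.235 across all genes and -0.386 across the members, with library and fragmentation shared). In the other libraries, each against the rest of its region, r ran from -0.192 (SVZ 3) to 0.222 (DG 3) across all genes. Across the members it ran from -0.204 (SVZ 3) to 0.302 (SVZ 1). Across members the fold change itself ran with length at r = -0.285, against -0.0144 across all genes, and the part of length in the differences was not tested.

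The remaining repair genes, taken from pathway lists, were lower more often than higher. Of 131 such genes, 77 were lower in DG (58.8%) and 13 higher (9.92%), with a median of -0.45, against 33.7% lower, 32.9% higher and a median of -0.07 over all genes. Lower genes made up 11 of 14 in the Fanconi and crosslink list, 25 of 35 in homologous recombination and 11 of 14 in the checkpoint list. They made up 15 of 22 in base excision. In end joining (6 of 19, 31.6%), nucleotide excision (4 of 13, 30.8%) and lesion bypass with direct reversal (5 of 14, 35.7%) the share lower was near that of all genes.

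Partners of the members were among them. Brip1, the helicase that binds Brca1, was lower by 2.13 log2 (adjusted p = 6.95e-07), and Eme1, a nuclease subunit for joined strands, by 1.92 log2 (adjusted p = 6.59e-06). Exo1 and Rbbp8, which resect broken ends, were lower by 2.00 log2 (adjusted p = 1.4e-07) and 1.42 log2 (adjusted p = 1.27e-06). Clspn, which links Atr to Chek1, was lower by 2.37 log2 (adjusted p = 1.79e-06), and Timeless, which stabilises forks, by 1.53 log2 (adjusted p = 1.77e-06). Mdc1 and H2afx, which mark breaks in chromatin, were lower by 1.29 log2 (adjusted p = 3.16e-06) and 1.42 log2 (adjusted p = 5.61e-05).

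In excision repair, Lig1, the ligase of replication and repair, was lower by 1.71 log2 (adjusted p = 1.38e-07), and Tdg, a thymine glycosylase, by 1.49 log2 (adjusted p = 6.34e-07). Ddb1, of the ligase that binds ultraviolet damage, and Gtf2h3, a TFIIH subunit, were lower by 0.42 log2 (adjusted p = 0.00217) and 0.33 log2 (adjusted p = 0.0052). Shprh and Hltf, ubiquitin ligases of lesion bypass, were lower by 1.16 log2 (adjusted p = 3.65e-05) and 0.44 log2 (adjusted p = 0.0013). Mre11a, Nbn and Trp53 were picked after their values were seen, as partners of Rad50 and Atm. Mre11a and Trp53 were lower by 0.65 log2 (adjusted p = 0.000498) and 0.49 log2 (adjusted p = 0.000201), while Nbn differed by 0.31 log2 (adjusted p = 0.146) and did not pass.

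Genes higher in DG were fewer. Mgmt, which removes alkyl groups from guanine directly, was higher by 1.79 log2 (adjusted p = 0.000488), and Mpg, the glycosylase for alkylated bases, by 1.11 log2 (adjusted p = 0.000325). Polk, a polymerase of lesion bypass, was higher by 1.13 log2 (adjusted p = 0.000246), and Ddb2, which hands lesions to Xpc, by 0.66 log2 (adjusted p = 0.0335), a call lost under 5 alternatives. Shld1 and Shld2, which protect ends from resection, were higher by 0.60 log2 (adjusted p = 0.000578) and 1.05 log2 (adjusted p = 0.00591). Mnd1, a meiotic recombination gene, and Zswim7, of the Shu complex, were higher by 1.38 log2 (adjusted p = 2.33e-05) and 0.88 log2 (adjusted p = 0.00624). Cdkn1a, the cell cycle inhibitor that Trp53 activates, was higher by 0.67 log2 (adjusted p = 0.00736).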

How the data were processed

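Cells were sorted for green fluorescence, and full-length cDNA was primed at the poly-A tail, amplified, sheared and sequenced without molecular identifiers or strand marks, per the labels' protocols. Per the submitters' processing notes, the authors' tools were STAR and edgeR and their build mm10; no source used here gives versions, counter, annotation or filter. The deposited values are log2 CPM. Inverting the formula with a prior count of 1 read gave whole reads for 100% of values (tolerance 0.001), from which totals, CPM and RPKM were computed. As the deposited unit is log2, no count model was fitted.

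DG minus SVZ was tested on all 14477 genes in limma 3.58.1 under R 4.3.3. The fit had a trend of variance on level, tissue as the only term and Benjamini-Hochberg adjustment. Every adjusted p is from this fit unless an alternative is named with it. The fit was tested on simulated data with far fewer changed genes than here, so this checks the code only. All 9 libraries entered it, and no pair of libraries of the same region agreed within sampling noise. The smallest chi-square per degree of freedom was 19.6. Symbols, lengths and 1-based coordinates came from GENCODE M21 (14433 identifiers matched, 44 did not), and promoter windows from RefSeq. RPKM uses the union of annotated exons, so overlapping genes share bases.

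Members and lists were chosen with earlier results of these data known. Values in every library are given for members set by name (Brca1, Brca2, Fancd2, Chek1, Blm, Atm, Atr, Xrcc5, Xrcc6, Parp1, Msh6, Ercc1, Xpc and Rad21) and for the member with the smallest adjusted p in each direction of each role group. Of the other repair genes, up to 2 per list and direction with the smallest adjusted p are named. Some genes that these rules take are not reported here, though they remain in the counts over all members. Of the 135 names of these lists, 131 had values. Alternatives were scaling by TMM, prior counts of 0.25 and 5 reads, a mean of at least 1 log2 CPM, no trend, voom on the reads, the replicate number as a block and leaving out each library.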

Additional observations from a re-analysis of the deposited data

Results flagged for a closer look

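In 6 of 128 sets of values (each member in each region, 4.69%), 1 library lay far from the others of its region by Dixon's criterion. Chance alone flags about 1 in 20 of independent sets. Genes share their libraries, so these sets are not independent and the rates cannot be compared strictly. All 6 were DG libraries, and levels are log2 CPM. Atr, the kinase that activates Chek1, was 3.47 in DG 5, against 3.91 to 4.06 in the other DG libraries. Rad50, of the end-tethering complex, was 4.92 in DG 5, against 5.28 to 5.36. Msh3, the mismatch sensor subunit for loops, was 4.08 in DG 5, against 4.71 to 4.96. Fancf, of the Fanconi core, was -1.07 in DG 1, against -0.08 to 0.31, and was among the rarest members. Rad9a, of the checkpoint clamp, was 5.72 in DG 4, against 5.47 to 5.54. Pms2, of the MutL group, was 5.57 in DG 2, against 5.11 to 5.24.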

How the results depend on the processing

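Of the 46 members past the threshold, 38 kept their call under all 16 alternatives, 9 of which left out 1 library, and 0 members reversed. The count of members lower in DG was 41 as reported, 37 with TMM scaling, 39 without the trend, 41 with voom and 36 to 39 when a library was left out. The count higher in DG was 5 as reported, 4 without the trend or with voom, and 4 to 6 when a library was left out. The share of all genes called under each alternative is not given beside these counts, so changes in them may not be particular to the members. Calls were lost for Xrcc1 under 10 alternatives, Msh3 and Mlh3 under 8 each, Rad17 under 7, Parp2 and Chek2 under 5 each, Fancg under 4 and Rad50 under 1. Of the 18 others, Rad9b gained a call, without DG 5 (0.42 log2, adjusted p = 0.0491). TMM moved the median of all genes to -0.02. With the replicate number as a block, which uses only the numbers both regions have, 34 members were lower and 5 higher, and Rad50 had adjusted p = 0.0569. Same-numbered libraries did not deviate together (r of -0.045, -0.173, 0.007 and -0.107 across genes). With so few libraries, correlations of this size cannot decide if the numbers pair the samples. Of the 131 other repair genes, 71 to 79 were lower and 11 to 14 higher when a library was left out, and 68 and 11 with the block. Depth limits Parp3 in SVZ most, where reads were as few as 4.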
